A study of Mus musculus with 6 samples.

Results

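Uba7, Isg15 and 7 other genes of the interferon response, Usp18, Ube2l6, Ifit1, Ifit3, Irf7, Bst2 and Ifitm3, were followed in bulk RNA sequencing (bulk-seq) of mouse spinal cord, 9 of the 25576 genes listed. They were chosen by name with the SMA and control values of these same libraries known. Uba7 was selected on being lower in SMA, and the rest because they act with it or answer to interferon. Their values between SMA and control are therefore given as a description, without a test. In spinal muscular atrophy (SMA), loss of SMN protein leads to the death of motor neurons. SMA mice of the severe Taiwanese model had no functional mouse Smn (mSmn-/-) and carried the human SMN2 transgene (hSMN2 2tg/0). Control mice were heterozygous for the same knockout (mSmn+/-) with the same transgene, so that both groups carried at least 1 knockout allele and human SMN2, and no wild-type mice were compared. All were of the FVB strain and taken at postnatal day 4, and whole spinal cord was used, with 3 libraries per group. The methods give triplicates with n = 1 per group, which can be read as 1 sample per group or as 1 animal per library. Nothing says that the libraries came from separate animals. The p-values below then measure only the spread between libraries, which may be technical.

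Interferons are secreted proteins that cells release when they sense foreign nucleic acid. They bind receptors that signal through JAK kinases and STAT factors to interferon-stimulated response elements, DNA motifs upstream of interferon-stimulated genes, whose products block viral entry, translation and release. ISG15 is such a product, a ubiquitin-like protein that UBA7 activates, UBE2L6 carries and HERC ligases attach to target proteins, and that USP18 removes; in the brain and spinal cord the response is known mainly from microglia, endothelial cells and infected neurons.

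Values are FPKM, sequenced fragments scaled to the length of the transcript and the size of the library, with 0 for genes that a library does not list. Those of a group are given in the order of replicates 1, 2 and 3. Between 21197 and 22296 genes were listed per library. Smn1, the targeted gene, was at 10.4, 8.64 and 11.9 FPKM in control replicates 1, 2 and 3 and at 8.48, 9.30 and 11.1 FPKM in SMA replicates 1, 2 and 3. The groups overlapped, so Smn1 gave no check of the labels.

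Control replicate 2 stood apart from the other 5 libraries. Across the 17088 genes tested, its highest Pearson r with any of them was 0.849, whereas the lowest r among the other 5 was 0.983; these correlations are across genes, which are not independent replicates. All 12 hepatocyte markers were highest in it, with a summed level of 30544 FPKM against 49.4 to 108 FPKM in the others, and none was at 0 in any library. Alb, the albumin gene and the most abundant of them, was at 15894 FPKM there and at 24.6 to 56.2 FPKM elsewhere. The 5 Kupffer cell markers summed to 39.4 FPKM in control replicate 2 and to 0.104 to 0.246 FPKM elsewhere, where each of the 5 was listed at 0 in at least 1 library. Marco, a scavenger receptor and the most abundant of that list, was at 12.3 FPKM in control replicate 2. The 7 neutrophil markers, led by S100a8, reached 418 FPKM against at most 11.6 FPKM, and the 6 erythroid markers, led by Hba-a1, 7108 FPKM against at most 723 FPKM. Conversely, the 10 neuronal and spinal cord markers, led by Tubb3, summed to 376 FPKM in control replicate 2 and to 697 to 749 FPKM in the others, so that the tissue's own markers were present in every library. The 6 microglial markers lay between 65.9 and 72.1 FPKM in all 6 libraries, and the 6 glial markers, led by Mbp, between 865 and 1386 FPKM. The 6 lymphoid and dendritic markers, led by Flt3, summed to 5.11 to 7.20 FPKM, with 3 of the 6 highest in control replicate 2. Each result is therefore given with control replicate 2 and without it.

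**Figure D1:**
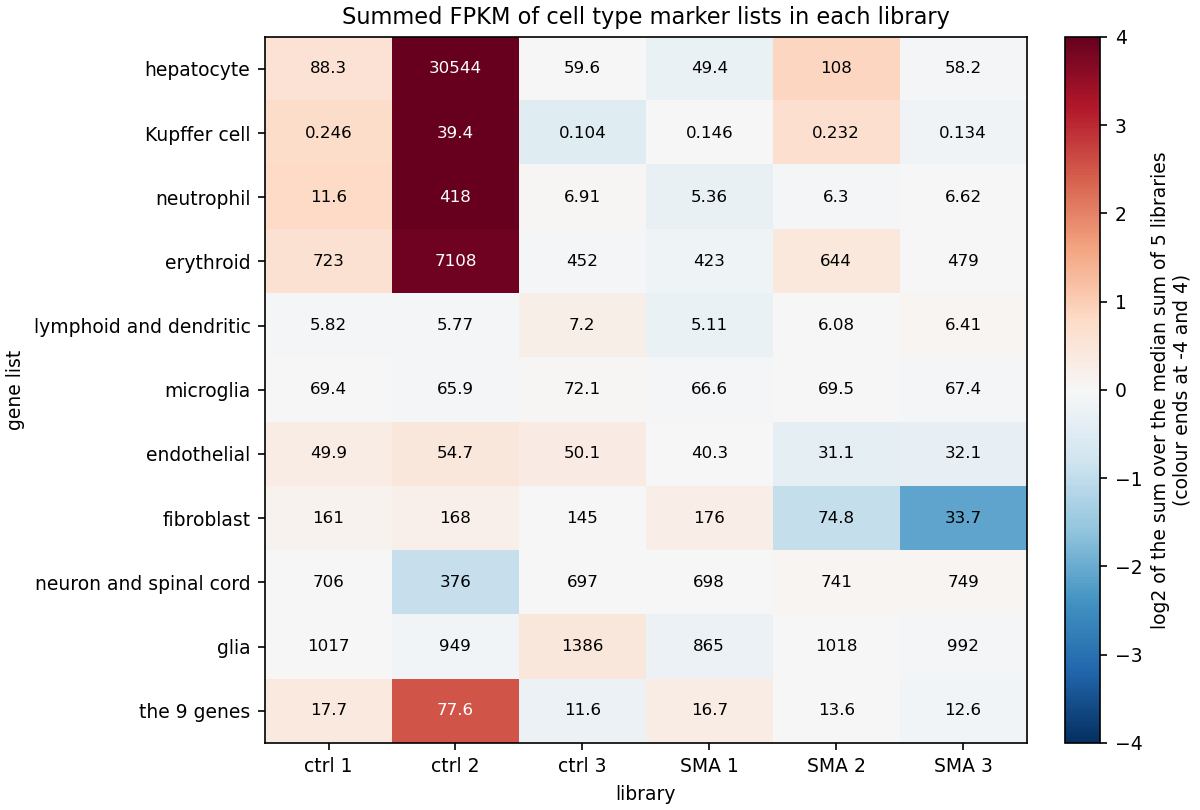
Summed FPKM of each cell type marker list (vertical axis) in each library (horizontal axis), printed in the cells, with colour for the log2 ratio to the median sum of the 5 libraries other than control replicate 2. Hepatocyte, Kupffer cell, neutrophil and erythroid sums and the sum of the 9 genes (77.6 FPKM against 11.6 to 17.7) were highest in control replicate 2, and microglial sums were similar in all libraries. The endothelial sum was also highest there, by less (54.7 FPKM against at most 50.1).

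In outline, each of the 9 genes had its highest value in control replicate 2, as had 23.8% of all genes listed. Uba7 was lower in every SMA library than in every control library whether or not control replicate 2 was counted. Ube2l6, Ifitm3, Isg15, Usp18 and Irf7 had a negative log2 difference (mean log2(FPKM + 1), SMA minus control) with that library and a positive one without it, but leaving out control replicate 3 as well gave -0.21 for Ube2l6, -0.04 for Ifitm3 and -0.06 for Irf7. Isg15 itself was close to the lower limit of these libraries.

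Upstream sequence was available from RefSeq (build GRCm38.p6, the C57BL/6J reference and not FVB) for 8 of the 9 genes, as 250 bases before and 50 after the start. The core of the interferon-stimulated response element, GAAANNGAAA, and the shorter core bound by interferon regulatory factors, AANNGAAA, which every match of the longer core contains, were searched on both strands. The longer core was found in 5 of the 8, in 46 of 125 entries of the other genes on the interferon and ISG15 lists (36.8%) and in 3.44% of all 32851 promoters of the same length. The shorter core was found in 6 of the 8 in 72 of the 125 entries of the other listed genes (57.6%) and in 23.9% of all promoters. Uba7 had only the shorter core, 27 bases before its RefSeq start; GENCODE M21 places the start of Uba7 further upstream, so that the match lies inside the gene there. Ube2l6 and Irf7 had neither in this window. The stretches are shown because interferon is known to act through such motifs, and genes chosen for answering to interferon are not independent of them; they run 5′ to 3′ on the strand of the gene, with matches in capitals. That of Isg15 lies at chr4:156200855-156200916 (minus strand) with 3 overlapping matches, that of Ifit1 at chr19:34640765-34640833 (plus), that of Ifit3 at chr19:34583353-34583436 (plus) and that of Bst2 at chr8:71537567-71537622 (minus), all upstream of the start. That of Ifitm3 lies just past the start at chr7:141010715-141010743 (minus), and that of Uba7, in the shorter core, at chr9:107975529-107975558 (plus).
Isg15: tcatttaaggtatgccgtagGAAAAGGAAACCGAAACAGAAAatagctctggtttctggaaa
Ifit1: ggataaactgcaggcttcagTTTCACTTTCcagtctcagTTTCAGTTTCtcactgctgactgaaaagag
Ifit3: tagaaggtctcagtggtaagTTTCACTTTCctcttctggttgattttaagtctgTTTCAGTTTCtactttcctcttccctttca
Bst2: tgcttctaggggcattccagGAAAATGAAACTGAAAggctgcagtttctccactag
Ifitm3: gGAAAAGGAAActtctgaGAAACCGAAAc
Uba7: actcagtctagTTTCACTTttggtttcctg
A match is a description of the reference letters and not a measured binding site.

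Ligands and receptors set the frame for the 9 genes. Of 21 interferon genes on the list, 17 were in none of the libraries and 4 were listed in 1 or 2 libraries each. Ifng, which encodes interferon gamma, was the highest of them, at 0.308 FPKM in control replicate 1, 0.0586 FPKM in SMA replicate 1 and 0 in the other 4. Ifna2, a type I interferon, was at 0.113 FPKM in SMA replicate 3 and at 0 elsewhere. Their receptors and kinases, by contrast, were measured in every library. Ifnar1, a chain of the type I receptor, was at 27.5, 25.9 and 26.2 FPKM in the 3 controls and at 24.8, 23.0 and 23.0 FPKM in the 3 SMA libraries. Its groups did not overlap, but were close. Jak1, the kinase shared by type I and type II receptors, lay between 33.3 and 39.2 FPKM in all 6 libraries, with overlapping groups.

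Irf7, the factor that amplifies type I interferon transcription, was the member on the signalling side (chr7:141262706-141266481, minus strand). It was at 0.362, 1.35 and 0.226 FPKM in control replicates 1, 2 and 3 and at 0.418, 0.336 and 0.168 FPKM in SMA replicates 1, 2 and 3. Only control replicate 2 was set apart, and the other 5 values of both groups lay among each other. The difference between the group means of log2(FPKM + 1), SMA minus control, was -0.27 with control replicate 2 and 0.01 without it, or -0.62 and 0.02 with a pseudocount of 0.1 in place of 1, and the sign without it turned when control replicate 3, SMA replicate 1 or SMA replicate 2 was left out as well; on this scale the differences of genes far below 1 FPKM are understated. In the files Irf7 shares a span with Phrf1, whose end overlaps 45 exonic bases of Irf7 on the other strand.

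Uba7 encodes the only activating enzyme of the ISG15 pathway (chr9:107975505-107984060, plus strand). It was at 2.78, 7.85 and 1.71 FPKM in control replicates 1, 2 and 3 and at 0.724, 0.602 and 0.361 FPKM in SMA replicates 1, 2 and 3. Every control value was above every SMA value, and control replicate 2 was the highest. The control mean was 4.11 ± 3.28 FPKM (SD, n = 3), or 2.24 ± 0.76 FPKM (SD, n = 2) without control replicate 2, and the SMA mean 0.562 ± 0.185 FPKM (SD, n = 3). The ratio of the control to the SMA mean was 7.31, or 3.99 without control replicate 2, and the log2 difference was -1.53 or -1.04. With a pseudocount of 0.1 in place of 1 it was -2.43 or -1.83. The lowest control value was 2.36 times the highest SMA value.

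Other values moved with Uba7 in part. Outside control replicate 2 the hepatocyte sum overlapped between the groups and was highest in SMA replicate 2 (108 FPKM), where Uba7 was at 0.602 FPKM. The endothelial list, led by Cldn5, summed to 49.9, 54.7 and 50.1 FPKM in the 3 controls and to 40.3, 31.1 and 32.1 FPKM in the 3 SMA libraries, with none of its 5 genes at 0 and 3 of them, Cldn5 among them, without overlap. Cldn5, a tight junction gene, was at 20.4 to 25.8 FPKM in the controls and at 14.4 to 16.4 FPKM in SMA. The 5 fibroblast markers, led by Col1a2 and none at 0, summed to 74.8 FPKM in SMA replicate 2 and 33.7 FPKM in SMA replicate 3, against 145 to 176 FPKM in the other 4. Of the 7 neutrophil, 6 erythroid and 5 Kupffer cell markers, 1 of each list had every control above every SMA library, and the others overlapped. The Kupffer cell gene was Marco, at 0.0454 and 0.104 FPKM in control replicates 1 and 3 and at most 0.0259 FPKM in SMA. Over all genes listed, 5.13% had every control above every SMA library with 6 libraries, and 11.1% without control replicate 2. Nothing is read from 1 gene per list. The part of these cell types in the Uba7 values was not tested. In bulk tissue, fewer cells of a type and less RNA per cell cannot be told apart.

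The locus limits the Uba7 values as well. The files give Uba7 and 6 other genes the same span, and the GENCODE M21 exons of Uba7 share 233 bases with those of Gm20661 on the same strand. Gm20661 and Ip6k1 are named for their place in the span, after their values were seen. Gm20661 was at 0.0391, 0.392 and 0.327 FPKM in the 3 controls and at 0.326, 0.147 and 0.0880 FPKM in the 3 SMA libraries. Its groups overlapped. Ip6k1, the most abundant gene of the span and an inositol phosphate kinase, was at 51.2 FPKM in control replicate 2 and at 61.6 to 70.4 FPKM in the others. None of the other genes of the span had every control library above every SMA library.

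Ube2l6 encodes the carrier enzyme that takes ISG15 over from UBA7 (chr2:84798828-84810335, plus strand). It was at 3.03, 26.4 and 1.56 FPKM in control replicates 1, 2 and 3 and at 2.90, 2.43 and 2.19 FPKM in SMA replicates 1, 2 and 3. Control replicate 2 was 8.71 times the highest other value, while the remaining controls lay on either side of all 3 SMA values. The log2 difference was -0.91 with that library and 0.12 without it. Leaving out control replicate 3 alone gave -1.59. Without control replicate 2 it was -0.21 when control replicate 3 was left out as well, and 0.45 when control replicate 1 was.

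Isg15, the modifier itself (chr4:156199424-156200818, minus strand), was at 0.0831, 1.05 and 0.0874 FPKM in control replicates 1, 2 and 3 and at 0.189, 0.0926 and 0 FPKM in SMA replicates 1, 2 and 3. After adjustment for relative depth, the values outside control replicate 2 were 1, 1, 2, 1 and 0 times the smallest value above 0, to within 0.07 of a whole step, as a handful of fragments would give. The log2 difference was -0.30 with control replicate 2 and 0.01 without it, or -0.94 and -0.06 at a pseudocount of 0.1. Isg15 lay below the mean of 0.5 FPKM required for testing, and depth in reads is unknown. Which difference between the groups could have been detected outside control replicate 2 was not tested.

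Usp18, the protease that removes ISG15 (chr6:121245906-121270917, plus strand), was at 0.106, 2.54 and 0 FPKM in control replicates 1, 2 and 3 and at 0.138, 0.169 and 0.0694 FPKM in SMA replicates 1, 2 and 3. It was nearly confined to control replicate 2, where it was 15.0 times the highest other value. The log2 difference was -0.49 with that library and 0.10 without it, or 0.63 without it at a pseudocount of 0.1. Leaving out control replicate 3 alone gave -0.81. Without control replicate 2 it was 0.02 when control replicate 3 was left out as well, and 0.17 when control replicate 1 was. Of the ligases on the same list, Trim25 was at 6.55 FPKM in control replicate 2 and at 1.86 to 2.27 FPKM elsewhere. Arih1 was at 24.4 FPKM there and at 28.0 to 30.7 FPKM elsewhere. Herc6, named after its values were seen, was at 1.61, 4.11 and 2.25 FPKM in the 3 controls. In the 3 SMA libraries it was at 1.89, 1.79 and 1.71 FPKM, with overlapping groups.

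**Figure D2:**
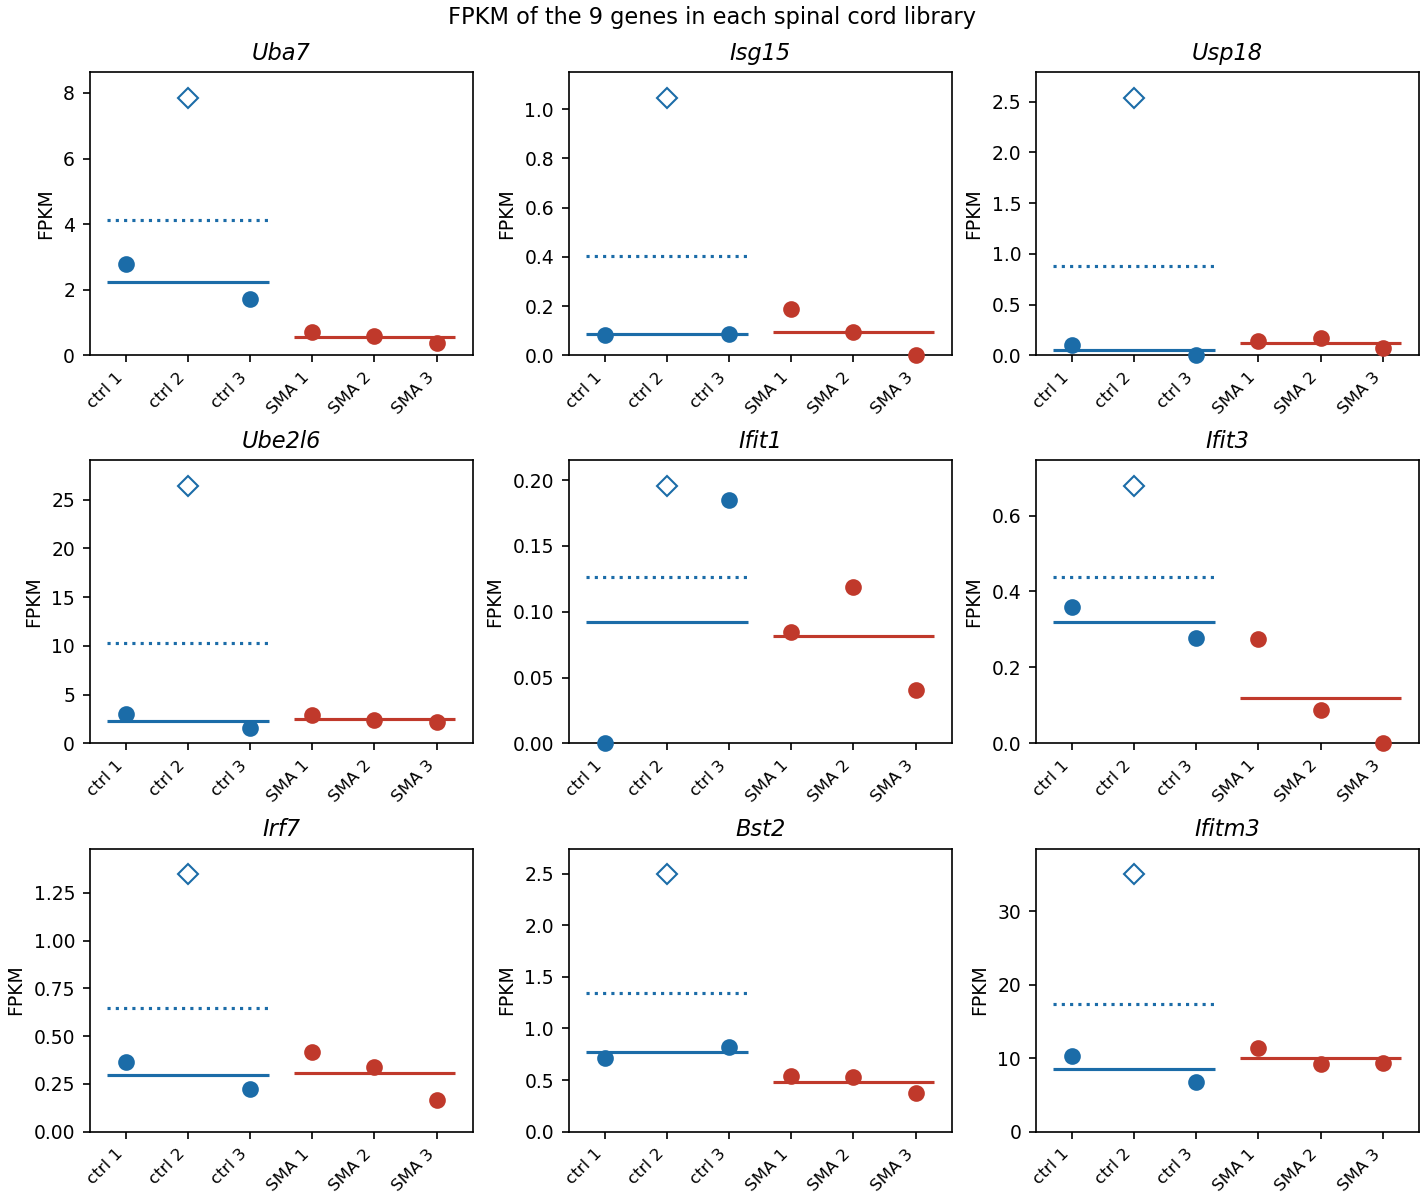
FPKM of each of the 9 genes (vertical axes, each from 0) in the 3 control (blue) and 3 SMA (red) libraries, with control replicate 2 as an open diamond. Lines are group means, dotted for the controls with control replicate 2 and solid without it; every gene was highest in control replicate 2, and Uba7, Ifit3 and Bst2 had every control above every SMA library.

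Ifit1 encodes a protein that binds foreign RNA and blocks its translation. Ifit1 and Ifit3 lie in the same gene cluster on chromosome 19, at chr19:34640871-34650009 and chr19:34583531-34588731 (plus strand). Ifit1 was at 0, 0.195 and 0.185 FPKM in control replicates 1, 2 and 3 and at 0.0844, 0.119 and 0.0410 FPKM in SMA replicates 1, 2 and 3. The groups overlapped fully, and the control range enclosed the SMA values. Ifit3 was at 0.359, 0.677 and 0.279 FPKM in control replicates 1, 2 and 3 and at 0.274, 0.0871 and 0 FPKM in SMA replicates 1, 2 and 3. Its groups did not overlap, but the lowest control was only 1.02 times the highest SMA value. The endothelial sum was also lower in each SMA library, and the fibroblast sum in SMA replicates 2 and 3; their part in the Ifit3 values was not tested. The log2 difference was -0.06 for Ifit1 and -0.36 for Ifit3 with control replicate 2, and -0.01 and -0.24 without it. With a pseudocount of 0.1 in place of 1, that of Ifit3 was -1.42 and -1.12. Ifit3 is a near copy of Ifit3b, and reads may be split between such copies.

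Bst2, also called tetherin, holds budding virus particles at the cell surface (chr8:71534255-71537456, minus strand). It was at 0.713, 2.49 and 0.822 FPKM in control replicates 1, 2 and 3 and at 0.536, 0.533 and 0.373 FPKM in SMA replicates 1, 2 and 3. All controls were above all SMA libraries, with the lowest control 1.33 times the highest SMA value. The control mean was 1.34 ± 1.00 FPKM (SD, n = 3), or 0.767 ± 0.077 FPKM (SD, n = 2) without control replicate 2, against 0.481 ± 0.094 FPKM (SD, n = 3) in SMA, and the log2 difference was -0.58 or -0.26. With a pseudocount of 0.1 it was -1.12 or -0.59. The endothelial sum, given above, was also lower in each SMA library; its part in the Bst2 values was not tested.

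Ifitm3 encodes a membrane protein that hinders the entry of enveloped viruses (chr7:141009586-141010770, minus strand) and was the most abundant of the 9. It was at 10.3, 35.1 and 6.69 FPKM in control replicates 1, 2 and 3 and at 11.4, 9.21 and 9.41 FPKM in SMA replicates 1, 2 and 3. Apart from control replicate 2, the SMA values overlapped those of the controls and lay above their mean of 8.48 FPKM. The log2 difference was -0.41 with that library and 0.24 without it. Leaving out control replicate 3 alone gave -0.88. Without control replicate 2 it was -0.04 when control replicate 3 was left out as well, and 0.51 when control replicate 1 was. Of its neighbours, Ifitm2 was at 41.3 FPKM in control replicate 2 and at 8.53 to 13.6 FPKM elsewhere, while Ifitm1 was at 10.4 FPKM there and at 2.25 to 10.6 FPKM elsewhere.

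Across the 5 libraries other than control replicate 2, the mean FPKM, a value per length of transcript, ordered the genes as Ifitm3 (9.40), Ube2l6 (2.42), Uba7 (1.24), Bst2 (0.595), Irf7 (0.302), Ifit3 (0.1999), Usp18 (0.0964), Isg15 (0.0905) and Ifit1 (0.0858). Only Ifitm3 was separated from its neighbour, with a lowest value of 6.69 FPKM above the highest of Ube2l6, 3.03 FPKM. All other neighbours in that order had overlapping ranges. The order also differed between the groups. Ifit3 (mean 0.319 FPKM) was above Irf7 (0.294 FPKM) in control replicates 1 and 3, but below it in SMA (0.120 against 0.307 FPKM). Usp18 had a mean of 0.0529 FPKM in those controls, below Isg15 (0.0852 FPKM), and of 0.125 FPKM in SMA, above Isg15 (0.0940 FPKM). These values lay near the lower limit of the libraries, with Usp18 at 0 in control replicate 3 and Isg15 at 0 in SMA replicate 3. The differences in order were not tested.

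Taken by counts, 9 of the 9 genes had a negative log2 difference with control replicate 2 and 4 of 9 without it, namely Uba7, Bst2, Ifit3 and Ifit1. Over all genes tested 42.0% and 49.6% were negative. Ifit1 turned positive and Isg15 negative without that library when the pseudocount was 0.1 in place of 1. The median over the 9 was -0.41 with control replicate 2 and 0.01 without it, beside a median of 0.04 and 0.00 over all genes tested. Uba7, Ifit3 and Bst2, 3 of 9 in either case, had every control above every SMA library. Over all genes listed, 5.13% did so with the 6 libraries and 11.1% with the 5; Uba7 was selected on this contrast and the others with its values known, so nothing is read from the comparison. A mean of at least 0.5 FPKM, the limit for testing, was reached by 5 of the 9 with 6 libraries, Uba7, Usp18, Ube2l6, Bst2 and Ifitm3, of which Usp18 reached it only through control replicate 2.

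**Figure D3:**
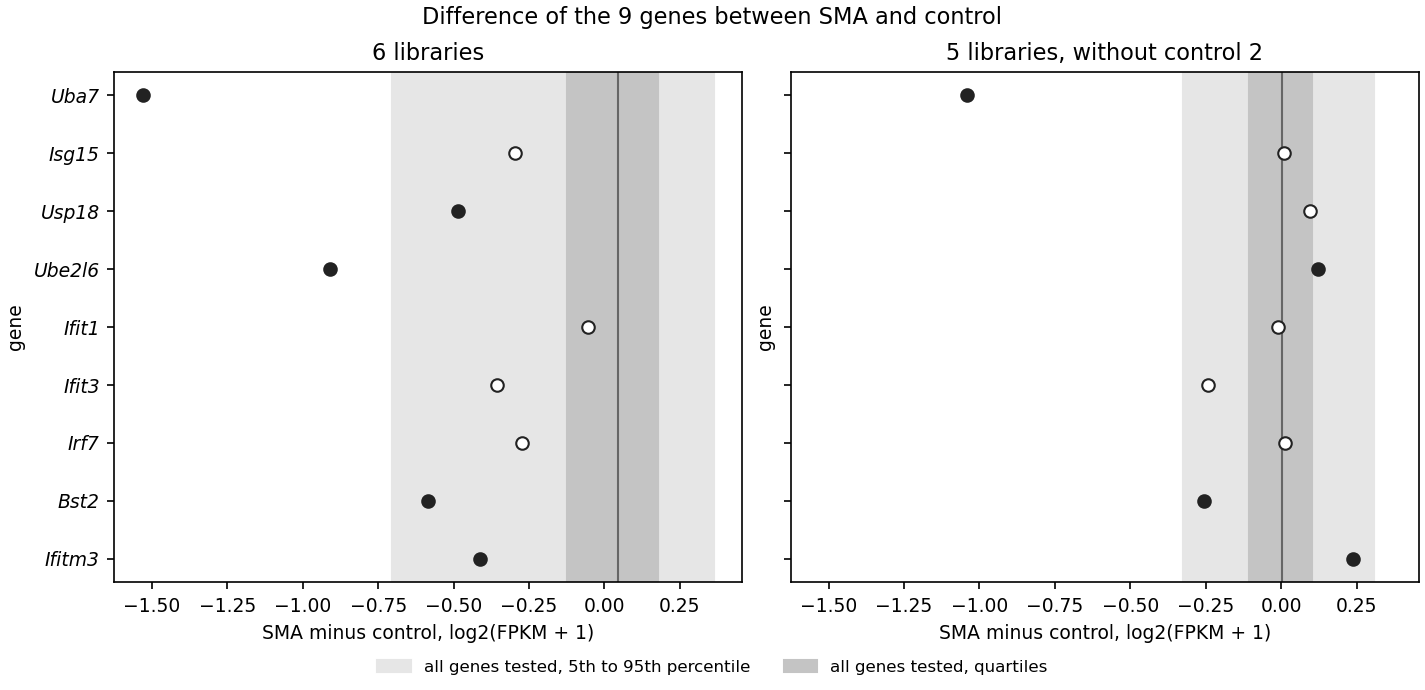
Difference in mean log2(FPKM + 1), SMA minus control (horizontal axis), of each of the 9 genes (vertical axis) with 6 libraries (left) and without control replicate 2 (right); filled points reached a mean of 0.5 FPKM, and grey bands show the middle of all genes tested, with their median as a line. Without control replicate 2, at this pseudocount of 1, Uba7 was at -1.04 and the other 8 between -0.26 and 0.24; at a pseudocount of 0.1 Uba7 was at -1.83 and Ifit3 at -1.12.

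The other genes of the interferon and ISG15 lists were compared with limma on log2(FPKM + 1). Of 123 written, 106 were in the files and 78 could be tested with 6 libraries. At an unadjusted p under 0.05, 1 was lower in SMA and 1 was higher, and none passed an adjusted p of 0.05. Over all 17088 genes, 2.39% were lower and 3.40% higher at that threshold, and 0 passed after adjustment. Irf1, an interferon-induced transcription factor, was the lower gene, at 1.66, 4.68 and 2.38 FPKM in the 3 controls and at 0.955, 0.951 and 1.17 FPKM in the 3 SMA libraries. Its log2 difference was -0.88 ± 0.28 (SE; limma adjusted p = 0.683), with all controls above all SMA libraries. Ifi27, which encodes a small mitochondrial membrane protein, was the higher gene, at 3.64, 4.17 and 3.26 FPKM in the 3 controls and at 6.61, 4.96 and 5.08 FPKM in the 3 SMA libraries. Its log2 difference was 0.48 ± 0.14 (SE; limma adjusted p = 0.683), with all SMA libraries above all controls. Irf1 missed the unadjusted threshold without SMA replicate 1 or SMA replicate 2, and Ifi27 without SMA replicate 1. The count of lower genes rested on single libraries: it was 9 without control replicate 1, 4 without control replicate 2, 6 without control replicate 3, 0 without SMA replicate 1 and 0 without SMA replicate 2. The count of higher genes was 2 without control replicate 1, 2 without control replicate 3 and 0 without SMA replicate 1.

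Without control replicate 2, 63 of these genes could be tested. The same unadjusted threshold was passed by 4 lower genes and 1 higher gene, and none passed after adjustment. Over all 16574 genes, 5.20% were lower and 5.27% higher, and 2 passed after adjustment. With rescaling to equal totals the counts were 1462 lower and 522 higher. The count after adjustment was 43 without control replicate 1 as well, 0 without SMA replicate 1 or SMA replicate 2, 3 without control replicate 3 and 1 without SMA replicate 3. Irf1 again was lower (log2 difference -0.57 ± 0.16, SE; limma adjusted p = 0.360) and Ifi27 higher (0.55 ± 0.14, SE; limma adjusted p = 0.318). The other lower genes were Ifnar1 (log2 difference -0.18 ± 0.07, SE), Parp9, the partner of the ubiquitin ligase DTX3L (-0.38 ± 0.15, SE), and Rnf213, a large ubiquitin ligase (-0.40 ± 0.16, SE), each with both controls above all SMA libraries and with limma adjusted p = 0.437, 0.443 and 0.458. When a further library was left out, Parp9 and Rnf213 missed the unadjusted threshold in 4 of 5 cases each and Ifnar1 in 3 of 5; Irf1 missed it without control replicate 3, and Rnf213 also with no filter on low values. The lower count was 1 without SMA replicate 2 and 1 without SMA replicate 3, and the higher count 3 without control replicate 3 and 3 without SMA replicate 3. Of the 5 endothelial markers, 3 were lower in SMA at the same unadjusted threshold and 0 higher, with 5 libraries and with 6. Their part in the values of the lower listed genes was not tested.

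Control replicate 2 held the highest value of 75 of the 106 genes (70.8%), beside the 23.8% of all genes listed. Among them were 46 of 57 other interferon-stimulated genes, 7 of 8 genes of the IRF family and 11 of 15 genes of nucleic acid sensing, and 2 of 6 IFIT, IFITM and BST2 effectors besides the 4 that are among the 9 genes; of the 4 ligands, each at 0 in most libraries, it was 0. Differences between the lists were not tested. Among the genes farthest above the other libraries, named after their values were seen, were Tgtp1, Ifi47 and Irgm2, GTPases induced by interferon gamma, with Zbp1, a nucleic acid sensor. Tgtp1 was at 8.60 FPKM in control replicate 2 and at 0 to 0.127 FPKM elsewhere, and Ifi47 at 14.2 FPKM against 0 to 0.373 FPKM. Tbk1, the kinase that activates IRF3, lay between 9.17 and 11.2 FPKM in all 6 libraries. Traf3, a signalling adaptor, was at 19.3 FPKM in control replicate 2 and at 27.0 to 28.7 FPKM elsewhere, and Adar, which edits double-stranded RNA, at 24.5, 18.4 and 26.5 FPKM in the controls and 28.1, 28.4 and 27.0 FPKM in SMA, with every SMA library above every control. Irf3, which switches on interferon genes, was at 9.30, 24.3 and 19.7 FPKM in the 3 controls and at 10.8 to 13.7 FPKM in SMA, so that a second control was high as well. Irf2 lay between 5.07 and 8.05 FPKM and Shisa5 between 11.8 and 15.2 FPKM, both with overlapping groups. The median log2 difference was -0.34 over the 78 genes tested with control replicate 2 and -0.06 over the 63 tested without it, or -0.23 and -0.03 with no filter. Some genes, such as Tgtp1 and Ifi47, reached the filter only through that library, so the medians support nothing. The hepatocyte, Kupffer cell, neutrophil and erythroid sums were also highest in control replicate 2. So was the endothelial sum, by less, at 54.7 FPKM against at most 50.1 FPKM. The part of these cells in the values was not tested.

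**Figure D4:**
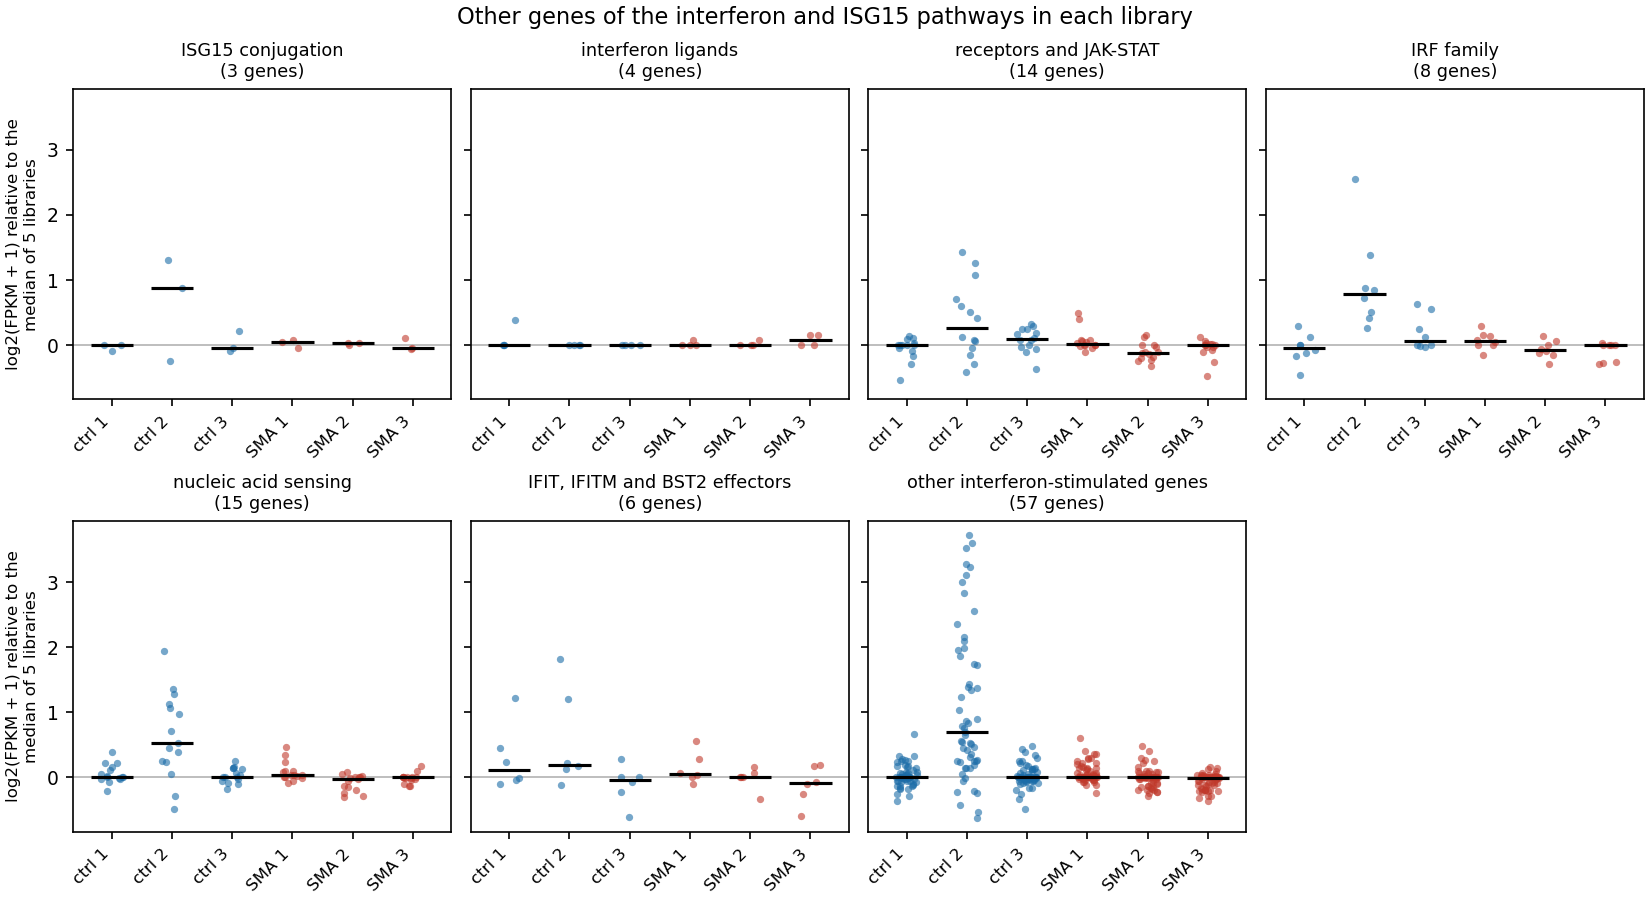
Log2(FPKM + 1) of the 106 other genes of the interferon and ISG15 lists relative to each gene's median over the 5 libraries other than control replicate 2 (vertical axis), by library (horizontal axis) and list; each point is a gene and each bar a median. The points of control replicate 2 spread upwards in all lists but the ligands, and those of the other 5 libraries lay around 0.

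Genes with the profile most like Uba7 were taken from all genes tested, by the root mean square difference of log2(FPKM + 1) after centring each gene on its own mean. Over 6 libraries they were Tk1, Hist1h4f, Vamp8, Llgl2 and Mcm3, with differences of 0.23 to 0.28 beside an SD of 1.01 for Uba7. Tk1, thymidine kinase, was at 5.34, 19.97 and 3.99 FPKM in the 3 controls and at 2.88, 1.39 and 1.67 FPKM in the 3 SMA libraries. Over the 5 libraries without control replicate 2 they were Gm13502, Polr2k, Rpl10a-ps1, Gm38008 and Copz2, with differences of 0.11 to 0.18 beside an SD of 0.61. Polr2k, an RNA polymerase subunit, was at 9.67 and 6.26 FPKM in control replicates 1 and 3 and at 3.16, 3.45 and 3.22 FPKM in SMA, but at 1.12 FPKM in control replicate 2, where Uba7 was highest. Isg15 was most like Tspan31, Trp53, Tmem64, Ripk1 and Acp6 over 6 libraries, at differences of 0.04 to 0.05 beside an SD of 0.38. The pseudocount of 1 sets this likeness: in control replicate 2 Isg15 was 11.6 times its mean of the other 5 libraries, while Tspan31 was at 33.9 FPKM against 15.6 to 19.0 FPKM. Over 5 libraries they were Akap10, 4930523C07Rik, RP24-344N22.4, Pgpep1 and Nrp1, at 0.01 to 0.02 beside an SD of 0.09. The last list rests on Isg15 values near the lower limit of the libraries.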

How the data were processed

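The authors sequenced ribosomal RNA-depleted, strand-specific libraries of whole spinal cord, aligned the reads with HISAT2 to mm10 and deposited FPKM computed with Cufflinks for each library on its own; no versions are given in the sources used here. FPKM holds no counts, so depth in reads is unknown, and relative depth was taken from the mode of the ratios between libraries below 0.15 FPKM. Gene positions are those of GENCODE M21 (GRCm38). The genes and lists were chosen with earlier results of these data known.

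Genes whose mean reached 0.5 FPKM were tested on log2(FPKM + 1) with lmFit and trended eBayes of limma 3.58.1 in R 4.3.3, two-sided, with Benjamini-Hochberg adjustment over all genes tested; the procedure was tested on simulated data. Tables were made in Python 3.11.15 with pandas 2.3.3. The genes named are the 9, the listed genes at an unadjusted p under 0.05, the 2 with the highest mean per pathway list, Smn1, the most abundant marker per list and the 5 nearest profiles; others are said to be named after their values were seen. Alternatives tried were no filter or a minimum mean of 1 FPKM, a pseudocount of 0.1, rescaling to equal totals, median ratio scaling, quantile normalization, robust eBayes, a block for the replicate number, and leaving out each library. The single-cell libraries were not analysed here.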

Additional observations from a re-analysis of the deposited data

How the results depend on the processing

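With 6 libraries, the listed genes lower in SMA numbered 1, and 3 with a pseudocount of 0.1, 2 with no filter, 4 with rescaling to equal totals, 2 with median ratio scaling, 3 with quantile normalization and 3 with robust eBayes. Leaving out single libraries gave 0 to 9 lower and 0 to 2 higher. Over all genes 409 were lower and 581 higher; leaving out single libraries gave 125 to 862 and 214 to 1040, and the higher count was 882 with no filter and 336 with rescaling. Without control replicate 2, listed genes numbered 4 lower and 1 higher, with 2 higher when unfiltered; leaving out a further library gave 1 to 6 lower and 1 to 3 higher. Over all genes 862 were lower and 874 higher, or 1462 and 522 with rescaling, and 533 to 1368 and 524 to 1437 without a further library. A group left with a single library was assumed to vary like the other. The causes were not tested.

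Same-numbered control and SMA libraries correlated at -0.037, 0.0161 and 0.0766 in their deviations across 17088 genes. Pairs with different numbers lay between -0.0554 and 0.0434. The deviations were taken from group means that include control replicate 2, so these values cannot decide whether the numbers pair the libraries. With the replicate block, 356 of all genes were higher; without control replicate 2 the block gave 554 lower and 552 higher, and 1 listed gene lower, with Ifnar1, Parp9 and Rnf213 missing the unadjusted threshold.

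The median of the 9 genes lay between -0.73 and 0.01 when single libraries were left out, the last without control replicate 2, and between -0.06 and 0.07 when a further library was left out. That of the listed genes lay between -0.48 and -0.06, and between -0.11 and 0.019. Without control replicate 2 and control replicate 3, Ube2l6, Ifitm3 and Irf7 turned negative and Ifit1 positive; Isg15, Ifit1 and Irf7 also changed sign without other single libraries. Uba7 was negative under every alternative run, from -2.43 with a pseudocount of 0.1 to -0.80 without control replicates 1 and 2. No scaling moved the median of all genes by more than 0.05 or changed the sign of any of the 9; quantile normalization gave values only for genes above the filter. A pseudocount of 0.1 gave a median of the 9 genes of -0.94. Without control replicate 2, no gene passed after adjustment with no filter or with the replicate block. Outside control replicate 2, Isg15 lay near whole steps of its smallest value; Usp18, Ifit1 and Ifit3 were low as well, but did not lie on such steps. Depth in reads is unknown.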
